A study of Mus musculus with 6 samples.

Results

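The Hox genes were taken as every gene whose symbol is made of Hox, a cluster letter from a to d and a paralog number, and 39 of the 32285 genes in the deposited matrices met that rule. They were followed in nuclei sorted from pons-medulla tissue of wild-type C57BL6/J mice, all males. Mice of the chronic intermittent hypoxia (CIH) group were kept for 21 days, from postnatal day 22 to 43 and after weaning at day 21, in a chamber in which 60 seconds of nitrogen brought oxygen down to between 4.5 and 5%. Air then raised it to 21% within up to 5 minutes, and 80 such cycles were run each day over 8 hours. Mice of the normoxia group breathed room air over the same days. Each group had 3 droplet libraries, and both groups were wild type. The labels do not state how many mice went into a library, so the p-values below measure the spread between these libraries, which may be technical.

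Hox genes encode homeodomain transcription factors and lie in clusters in which the order along the chromosome follows the order of expression along the body axis, a property known as collinearity. Genes with low paralog numbers reach furthest forward into the embryonic hindbrain, and genes with high paralog numbers are confined to the spinal cord and tail. In the hindbrain they give the segments (rhombomeres) their identity and pattern motor, respiratory and precerebellar neurons of the pons and medulla, and part of that pattern is kept in mature neurons. Hox proteins bind DNA together with cofactors of the TALE class (Pbx, Meis and Pknox), their clusters are switched on by retinoic acid, and polycomb and trithorax proteins keep them off or on.

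The 6 libraries held between 26733243 and 46754345 unique molecular identifiers (UMIs). Nuclei were kept when they had 500 genes or more and no more than 5% of UMIs from mitochondrial genes, which held for 40139 of 43836 barcodes. The kept nuclei numbered 4350, 4447 and 10643 in CIH, against 4698, 6615 and 9386 in normoxia. The third library of the CIH group differed from the rest in its median mitochondrial share, which was 0.366%, against 0.0624 to 0.0955% in the other 5. The first CIH library and the second normoxia library shared 1163 barcodes, which is 26.7% of the nuclei of that CIH library and 17.6% of those of that normoxia library, whereas all other pairs shared 2 to 31. In the shared barcodes the CIH copy had a median of 7.95 times the UMIs of the normoxia copy. Across genes, the 2 copies of a barcode correlated at a median of 0.575, against 0.359 for copies of different barcodes, and whether RNA of that CIH library entered the normoxia library was not tested. The 1159 copies with fewer UMIs were left out of that normoxia library, which left 38980 nuclei, and values with these copies kept are given beside the results they touch.

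Nuclei were assigned to a class when they passed the marker gate of that class and of no other, and no Hox gene entered a gate. Class names below stand for these gates. The neurons outside the cerebellar granule gate, called hindbrain-type neurons, numbered 11741. Among them were 1361 Slc17a6 excitatory neurons, 1175 glycinergic neurons (Slc6a5), 1594 GABA neurons without Slc6a5 and 7121 neurons with no transmitter call, together with 210 Slc17a7 excitatory, 138 cholinergic, 106 serotonergic and 36 noradrenergic neurons. No gene of position entered a gate, so the name hindbrain-type does not exclude midbrain neurons or cerebellar neurons outside the granule gate. The gates also held 10118 oligodendrocytes, 902 astrocytes, 1472 microglia and 3017 cerebellar granule neurons, while 6364 nuclei passed no gate and 4096 passed several. No marker of another class was among the 10 leading genes of any class. UMIs were summed per library and class, and a level in CPM is the share of a gene in all UMIs of that sum at the usual CPM scaling.

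The 39 genes lie in 4 clusters on mm10, with 11 genes in cluster a (chr6:52155590-52260880), 10 in cluster b (chr11:96194316-96368256), 9 in cluster c (chr15:102921103-103036852) and 9 in cluster d (chr2:74668310-74765142). In the kept nuclei 20289 Hox UMIs were counted, 11852 of them in hindbrain-type neurons. Over all kept nuclei 11 Hox genes had 0 UMIs, 6 had 1 to 10, 5 had 11 to 99 and 17 had at least 100. No gene with a paralog number above 8 reached 100 UMIs, and paralogs 9 to 13 together had 39. Genes without a UMI in any kept nucleus numbered 3 in cluster a, 1 in cluster b, 3 in cluster c and 4 in cluster d, all of paralog number 9 or higher, and a count of 0 still allows up to 3 UMIs per library, by counting error alone.

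Sequences upstream of 4 members are shown because they span the range of levels, chosen after the values were seen: Hoxb4 and Hoxd3 were well detected in hindbrain-type neurons, Hoxd1 had more UMIs in oligodendrocytes than in these neurons, and Hoxd9 was not detected. Each is the 250 bases before a RefSeq start site on GRCm38.p6, on the plus strand, at chr11:96318017-96318266 for Hoxb4, chr2:74711743-74711992 for Hoxd3, chr2:74762730-74762979 for Hoxd1 and chr2:74697513-74697762 for Hoxd9. Capitals mark the core of the retinoic acid receptor half-site, AGGTCA, which lies on the minus strand in both cases.
Hoxb4: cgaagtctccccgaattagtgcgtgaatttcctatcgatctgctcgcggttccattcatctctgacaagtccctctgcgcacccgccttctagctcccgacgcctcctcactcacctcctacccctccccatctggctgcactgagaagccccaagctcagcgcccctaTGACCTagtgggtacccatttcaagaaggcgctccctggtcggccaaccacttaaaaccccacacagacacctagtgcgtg
Hoxd3: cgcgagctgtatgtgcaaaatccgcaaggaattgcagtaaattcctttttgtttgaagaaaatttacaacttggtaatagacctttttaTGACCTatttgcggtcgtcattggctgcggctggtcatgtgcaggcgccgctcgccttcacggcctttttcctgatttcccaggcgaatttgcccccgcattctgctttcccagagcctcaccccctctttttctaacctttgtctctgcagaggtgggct
Hoxd1: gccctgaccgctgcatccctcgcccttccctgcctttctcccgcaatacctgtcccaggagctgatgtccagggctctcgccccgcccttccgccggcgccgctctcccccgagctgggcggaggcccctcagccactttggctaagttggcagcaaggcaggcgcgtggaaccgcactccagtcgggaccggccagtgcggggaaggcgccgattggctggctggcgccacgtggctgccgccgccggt
Hoxd9: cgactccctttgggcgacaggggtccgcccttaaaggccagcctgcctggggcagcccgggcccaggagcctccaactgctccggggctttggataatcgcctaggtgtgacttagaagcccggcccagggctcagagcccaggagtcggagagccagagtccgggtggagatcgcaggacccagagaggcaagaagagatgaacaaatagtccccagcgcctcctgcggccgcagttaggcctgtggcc

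Both strands of these windows were searched for AGGTCA, for the Meis core TGACAG and for the Pbx-Hox core TGATTNAT. Windows were found for 22 of the Hox genes (24 windows). AGGTCA was in 6 of 24 Hox windows (25%) and in 14.02% of 32851 windows over all genes. The 6 were those of Hoxb4, Hoxc4, Hoxd3, Hoxd4, Hoxd8 (44 UMIs in all kept nuclei) and Hoxd10 (0 UMIs). The windows of Hoxa3 (2301 UMIs), Hoxa5 (850 UMIs) and Hoxb8 (614 UMIs) had no AGGTCA. A link between a match and a level was not tested. TGACAG was in 2 (8.33%), against 15.9% of all windows, and TGATTNAT was in 2 (8.33%), against 2.83%. The Hox windows had a median of 12.5 CpG and 58.6% GC, against 6 CpG and 52.4% GC over all windows. A match describes the letters in the window and is not a site.

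Scaled to the span of each gene, the Hox genes with the highest levels in hindbrain-type neurons were Hoxb4 (3.59 CPM per kb) and Hoxb5 (3.48 CPM per kb), which in the embryo have their forward limits in the caudal hindbrain. They were followed by Hoxb2 (1.98 CPM per kb), a gene of the more rostral rhombomeres, Hoxa5 (1.87), needed in the mouse for phrenic motor neurons and the airway, Hoxb6 (1.28) and Hoxb3 (1.12). Hoxa3 and Hoxd3, which were among the genes with the most UMIs, stood at 0.328 and 0.395 CPM per kb, since their annotated spans are 44.28 and 36.52 kb. Scaling to span presumes that intronic reads were counted, which is not given. Without it Hoxb3 ranked 1 (27.6 CPM) and Hoxb4 ranked 5 (12.1 CPM). Of the genes with enough microglia UMIs for a ratio, Hoxb4 stood at 1.68 times its microglia level. The ratio was 3.01 for Hoxb6, 3.06 for Hoxc4 and 3.32 for Hoxd3. Reads of some members cannot be assigned with certainty. Hoxa3 overlaps Hoxa4, Hoxa5 and Hoxa6 on the same strand, Hoxd3 overlaps Hoxd4, and Hoxc5 overlaps Hoxc6, Hoxc8, Hoxc9 and Hoxc10. On the other strand, Haglr and Hoxd3os1 overlap Hoxd3, and Hoxb3os overlaps Hoxb2 and Hoxb3. Whether counting used the strand is not given in the sources used here.

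Cluster b held 54.2% of the Hox UMIs of hindbrain-type neurons, cluster a 18.7%, cluster c 11.4% and cluster d 15.8%, as UMIs not scaled for length. By paralog number, 6.46% of the UMIs came from paralogs 1 and 2, 78.8% from paralogs 3 to 5 and 14.5% from paralogs 6 to 8. The share of cluster b was 58.5, 54.7 and 58.6% in CIH, against 52.1, 52.5 and 53.2% in normoxia, and every CIH library lay above every normoxia library. The share of cluster d was 13.7, 16.3 and 12.6% in CIH, against 18.7, 16.9 and 14.9% in normoxia, and these ranges overlapped. No test was made of these shares between the groups.

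Oligodendrocytes divided their Hox UMIs differently from neurons. The share of cluster b averaged 54.9 ± 2.94% in hindbrain-type neurons and 29.3 ± 7.63% in oligodendrocytes (SD, n = 6 libraries), and it was higher in neurons in 6 of 6 libraries. Cluster c was also higher in neurons in 6 of 6 libraries, at 11.02 ± 1.20% against 6.95 ± 2.22%. Cluster a (18.6 ± 0.79% against 32.4 ± 3.84%) and cluster d (15.5 ± 2.25% against 31.3 ± 6.16%) were lower in neurons in 6 of 6 libraries. In the exact two-sided sign-flip permutation test over 6 libraries each of these 4 comparisons had p = 0.031, the smallest it can give, and an adjusted p of 0.031. They were added after the values were seen, and the 4 shares of a library depend on each other. Pooled over libraries, cluster b held 64.6% of 257 Hox UMIs in granule neurons and 55.1% of 98 in microglia, classes that should lack Hox RNA.

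**Figure D1:**
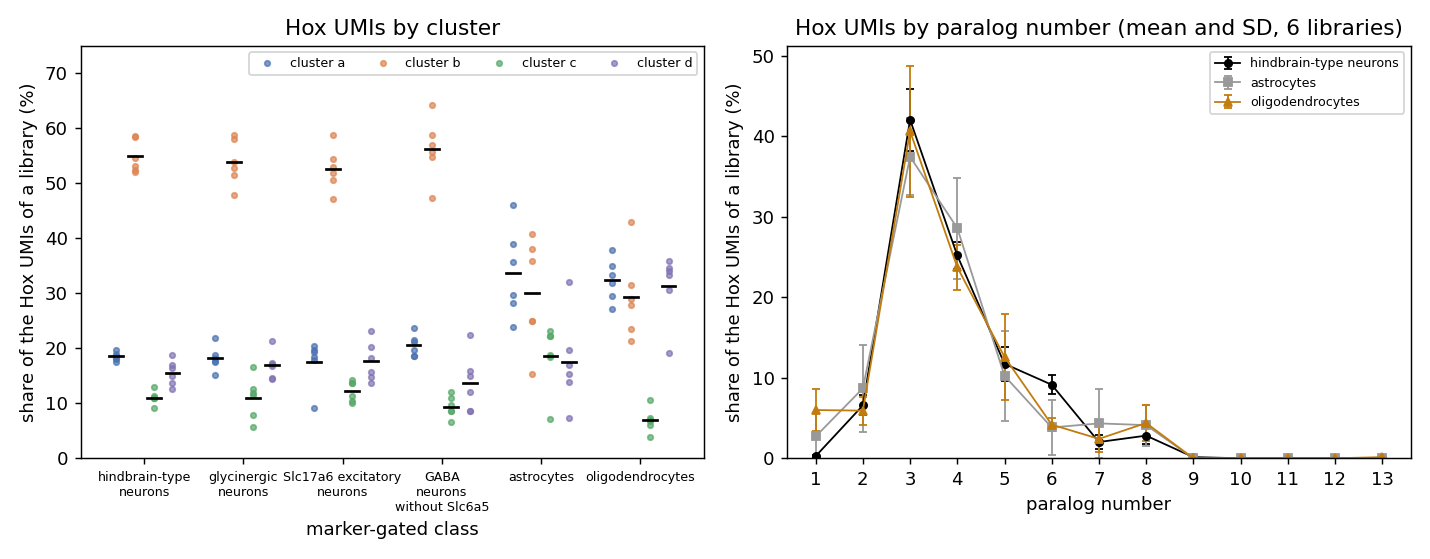
Left, the share of a library's Hox UMIs (%) that fell in each cluster, by marker-gated class, with a point for each of 6 libraries and a line at the mean. Right, the share by paralog number in hindbrain-type neurons, astrocytes and oligodendrocytes (mean and SD over 6 libraries). Cluster b held 54.9% in hindbrain-type neurons and 29.3% in oligodendrocytes, and paralogs 3 to 5 held most UMIs in all 3 classes on the right.

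Between hindbrain-type neurons and oligodendrocytes, 11 of the 13 Hox genes tested were higher in neurons and 0 were lower, by edgeR's quasi-likelihood test with library as a block and Benjamini-Hochberg adjusted p under 0.05. Over all genes 82.6% passed in either direction, 41.7% as higher and 40.9% as lower in neurons. The largest difference among Hox genes was that of Hoxb3, at 27.6 ± 7.55 CPM in neurons and 2.25 ± 0.829 CPM in oligodendrocytes (SD, n = 6), which is 3.36 as a log2 fold change (SE 0.13, adjusted p = 1.58e-11). Hoxb6 (2.87, SE 0.16), Hoxb4 (2.77, SE 0.16), Hoxc4 (2.60, SE 0.20), Hoxb2 (2.41, SE 0.26) and Hoxb5 (1.74, SE 0.15) also passed, with adjusted p between 7.03e-10 and 1.34e-06. Hoxa3, which takes part in patterning the caudal cranial nerves, differed less, with 14.5 ± 5.74 CPM in neurons and 6.41 ± 1.89 CPM in oligodendrocytes (1.01, SE 0.20, adjusted p = 4.44e-04). Hoxa4 (0.31, SE 0.24) and Hoxa2 (0.30, SE 0.30) did not pass. Over leaving out each library in turn 10 to 12 passed, and Hoxd4 (0.66, SE 0.24, adjusted p = 0.0208) was lost without the third CIH library or without the first or second normoxia library.

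Without the filter on low counts 28 Hox genes could be tested, of which 15 were higher in neurons and 1, Hoxd1, was lower, against 31.3% higher and 25.1% lower of all genes. Hoxd1, which was too rare to pass that filter, had 14 UMIs in hindbrain-type neurons (0.158 ± 0.149 CPM) and 44 in oligodendrocytes (1.55 ± 0.72 CPM; SD, n = 6). Its level in oligodendrocytes was 1.60, 2.28 and 0.50 CPM in CIH, against 1.70, 0.94 and 2.30 CPM in normoxia, and the groups overlapped. Haglr, a long noncoding RNA transcribed from cluster d on the other strand, had 2.14 ± 0.887 CPM in hindbrain-type neurons and 35.9 ± 6.96 CPM in oligodendrocytes. The log2 fold change, neurons over oligodendrocytes, was -4.20 (SE 0.15, edgeR adjusted p = 6.46e-12).

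Astrocytes numbered only 902, of which 528 came from the third CIH library, and their Hox values rest on few UMIs. Hoxc4 had 20.5 ± 8.89 CPM (51 UMIs) and Hoxa3 had 20.2 ± 4.98 CPM (48 UMIs), while Hoxb3 had 12.6 ± 10.3 CPM (31 UMIs) and Hoxd3 had 11.99 ± 6.84 CPM (34 UMIs; SD, n = 6). Hoxb3os, an antisense transcript of cluster b, reached 94.5 ± 32.1 CPM on 229 UMIs in astrocytes, against 9.70 ± 2.27 CPM in hindbrain-type neurons and 1.46 ± 0.59 CPM in oligodendrocytes. Its astrocyte level was 84.7, 115 and 75.5 CPM in CIH, against 105, 139 and 47.7 CPM in normoxia, and every one of these lay above every library of neurons. Hotairm1, a noncoding transcript of cluster a, had 31.0 ± 13.1 CPM in astrocytes, 9.74 ± 2.04 CPM in hindbrain-type neurons and 7.34 ± 1.70 CPM in oligodendrocytes.

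Summed over all 39 genes, Hox levels were 81.8, 89.0 and 142 CPM in hindbrain-type neurons of CIH, against 191, 181 and 127 CPM in normoxia. Astrocytes had 68.8, 128 and 103 CPM in CIH, against 158, 168 and 107 CPM in normoxia. The level in cells that should lack Hox RNA was taken as the background, and its source was not tested. Cerebellar granule neurons, which arise in front of the Hox territory, had 24.4, 15.9 and 28.0 CPM in CIH, against 33.8, 49.8 and 37.2 CPM in normoxia. Microglia had 29.3, 26.96 and 51.2 CPM in CIH, against 41.0, 43.6 and 43.0 CPM in normoxia. Oligodendrocytes, at 26.0, 26.1 and 41.4 CPM in CIH, against 36.7, 34.4 and 43.8 CPM in normoxia, were in the same range. In granule neurons every CIH library was below every normoxia library, while in microglia and oligodendrocytes the groups overlapped. The part of this background in the CIH comparisons of neurons below was not tested.

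**Figure D2:**
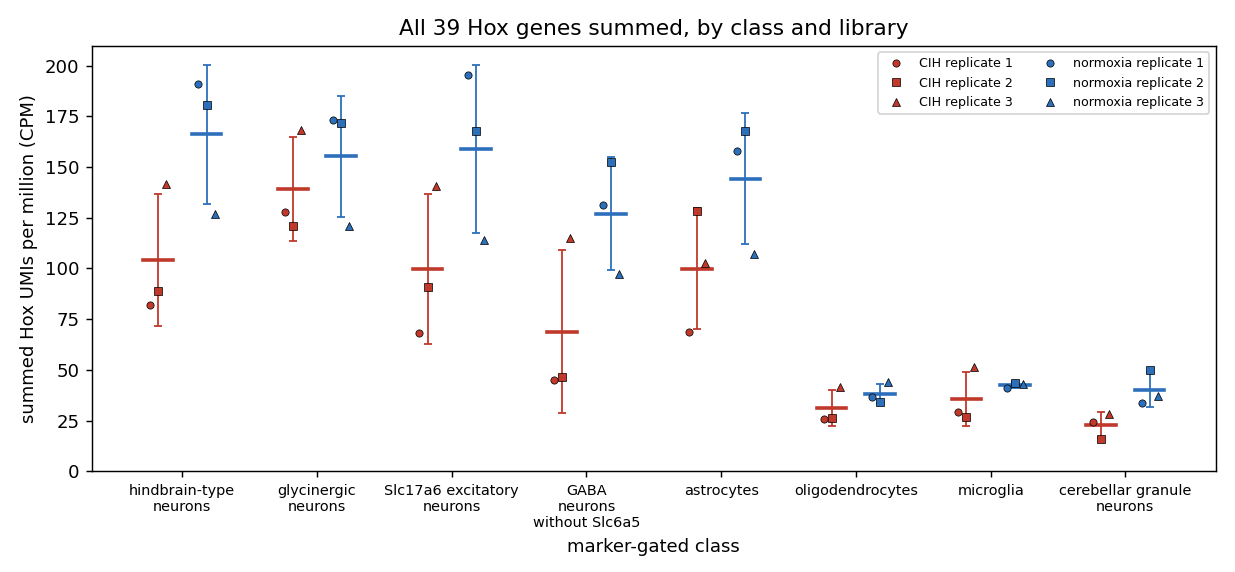
Summed level (CPM) of all 39 Hox genes in 8 marker-gated classes, with CIH libraries in red on the left of each class and normoxia libraries in blue on the right, and lines and bars for the mean and SD of 3 libraries. Hindbrain-type neurons lay between 81.8 and 191 CPM, and oligodendrocytes, microglia and granule neurons between 15.9 and 51.2 CPM.

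Slc17a6, glycinergic and GABA neurons were compared with each other, and of these 3 the GABA neurons without Slc6a5 had the lowest mean levels of Hoxd3 and Hoxb3. Against GABA neurons, 5 of 8 Hox genes tested were higher in glycinergic neurons and 0 were lower, while 20.6% of all genes passed in either direction, 10.2% as higher and 10.4% as lower (edgeR, library as a block). Hoxd3 had 17.3 ± 3.78 CPM in glycinergic neurons and 9.41 ± 5.54 CPM in GABA neurons (log2 fold change 0.87, SE 0.20, adjusted p = 0.00384). Hoxb3 had 30.6 ± 5.81 CPM against 21.1 ± 8.78 CPM (0.51, SE 0.15, adjusted p = 0.0227). Hoxa3 (0.68, SE 0.23), Hoxc4 (0.69, SE 0.23) and Hoxb6 (0.69, SE 0.24) had adjusted p of 0.0389, 0.0399 and 0.0477. The count was 2 without the first CIH library, 1 without the second, 3 without the third, 3 without the first or the third normoxia library and 4 without the second, and DESeq2 called 1.

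Slc17a6 excitatory neurons had 16.5 ± 9.99 CPM of Hoxd3 and GABA neurons 9.41 ± 5.54 CPM, and this was the 1 of 8 Hox genes that passed (0.79, SE 0.18, edgeR adjusted p = 0.00544), against 12.3% of all genes in either direction, 6.77% as higher and 5.52% as lower. DESeq2 called 0 of them, and 2 passed, Hoxd3 and Hoxc4, without the second normoxia library and likewise with the shared barcodes kept. Between Slc17a6 excitatory and glycinergic neurons 0 of 10 Hox genes passed, and 0 had an unadjusted p under 0.05, while 13.2% of all genes passed, 7.58% as higher and 5.61% as lower (edgeR; DESeq2 called 0 Hox genes). The difference closest to passing was that of Hoxb6 (-0.38, SE 0.18, adjusted p = 0.209), and Hoxd3 differed by -0.00 (SE 0.17). These comparisons use sums over nuclei, in which fewer Hox-expressing cells of a type and less Hox RNA per cell cannot be told apart.

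The small transmitter classes are given as values only. Cholinergic neurons, which include the motor neurons of the cranial nerves, had 297, 53.0 and 77.8 CPM of all Hox genes in CIH and 218, 124 and 45.3 CPM in normoxia, on 194 UMIs in all. Serotonergic neurons of the raphe had 20.3, 0 and 48.2 CPM in CIH, against 90.3, 114 and 59.2 CPM in normoxia, on 60 UMIs. With 6, 12 and 29 cholinergic nuclei in the CIH libraries, such values move with a few nuclei.

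Genes of the Hox pathway were counted in the same class contrasts. The TALE cofactors, with which Hox proteins bind DNA, were higher in hindbrain-type neurons than in oligodendrocytes for 6 of 9 genes and lower for 2, at adjusted p under 0.05 in edgeR, against 41.7% higher and 40.9% lower of all genes. Pknox2 had 119 ± 4.91 CPM in neurons and 5.78 ± 1.19 CPM in oligodendrocytes (4.14, SE 0.09), and Meis2 (2.33, SE 0.06) and Pbx4 (2.85, SE 0.14) were also higher. Of 12 upstream and maintenance genes tested, 5 were higher and 6 lower, shares near those of all genes. Rarb, a retinoic acid receptor, was higher (3.11, SE 0.09), and Ezh2 (-1.19, SE 0.05) and Bmi1 (-2.07, SE 0.12) of the polycomb complexes and the acetyltransferase gene Kat6a (-1.36, SE 0.06) were lower. Of 6 cluster transcripts tested, 4 were higher and 1, Haglr, was lower, and Hoxb5os had the largest positive value (3.26, SE 0.44). Against GABA neurons, 3 of 4 cluster transcripts were higher in Slc17a6 neurons and 3 of 4 in glycinergic neurons, where 6.77% and 10.2% of all genes were higher. Among TALE genes, Meis1 (0.92, SE 0.07) and Meis2 (0.38, SE 0.07) were higher and Pknox2 (-0.45, SE 0.06) lower in Slc17a6 neurons than in GABA neurons.

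CIH was then compared with normoxia. In the sum over hindbrain-type neurons, Hoxb3, a gene of the caudal rhombomeres, had 20.1, 20.0 and 26.0 CPM in CIH, against 37.0, 36.4 and 26.3 CPM in normoxia. Hoxa3 had 8.59, 9.41 and 11.7 CPM in CIH, against 20.9, 21.9 and 14.7 CPM in normoxia. Hoxd3 had 7.83, 9.60 and 10.9 CPM in CIH, against 23.4, 21.5 and 13.3 CPM in normoxia. For each of these paralog 3 genes every CIH library was below every normoxia library, and the third libraries of the groups lay closest to each other.

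Hoxc4, the only well-detected member of cluster c, had 6.96, 9.41 and 14.5 CPM in CIH, against 18.5, 17.9 and 14.8 CPM in normoxia, without overlap. Hoxb4 had 6.96, 8.34 and 14.9 CPM in CIH, against 14.6, 15.6 and 12.3 CPM in normoxia. Hoxd4 had 3.26, 4.66 and 6.32 CPM in CIH, against 11.6, 8.40 and 5.29 CPM in normoxia. For Hoxb4 and Hoxd4 the groups overlapped, because the third CIH library was above the third normoxia library.

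The remaining genes with many UMIs showed the same overlap. Hoxb5 had 5.54, 6.59 and 14.1 CPM in CIH, against 12.1, 11.7 and 8.17 CPM in normoxia. Hoxb6 had 7.28, 6.11 and 12.4 CPM in CIH, against 18.2, 16.1 and 9.59 CPM in normoxia. Hoxa5 had 3.04, 3.59 and 7.29 CPM in CIH, against 6.66, 7.08 and 4.09 CPM in normoxia. In all 3 the first and second CIH libraries were low, the third CIH library was high, and the third normoxia library was the lowest of its group.

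The most caudal members detected in number were paralogs 7 and 8. Hoxb8, which in the mouse also marks a lineage of microglia, had 1.85, 1.46 and 6.67 CPM in CIH, against 4.18, 4.43 and 3.53 CPM in normoxia. Hoxb7 had 0.87, 0.48 and 2.57 CPM in CIH, against 2.79, 1.79 and 1.64 CPM in normoxia. Hoxb2, at the rostral end, had 5.22, 5.62 and 6.25 CPM in CIH, against 10.0, 8.54 and 5.76 CPM in normoxia. For these 3 genes the groups overlapped as well, with the third CIH library the highest of its group.

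**Figure D3:**
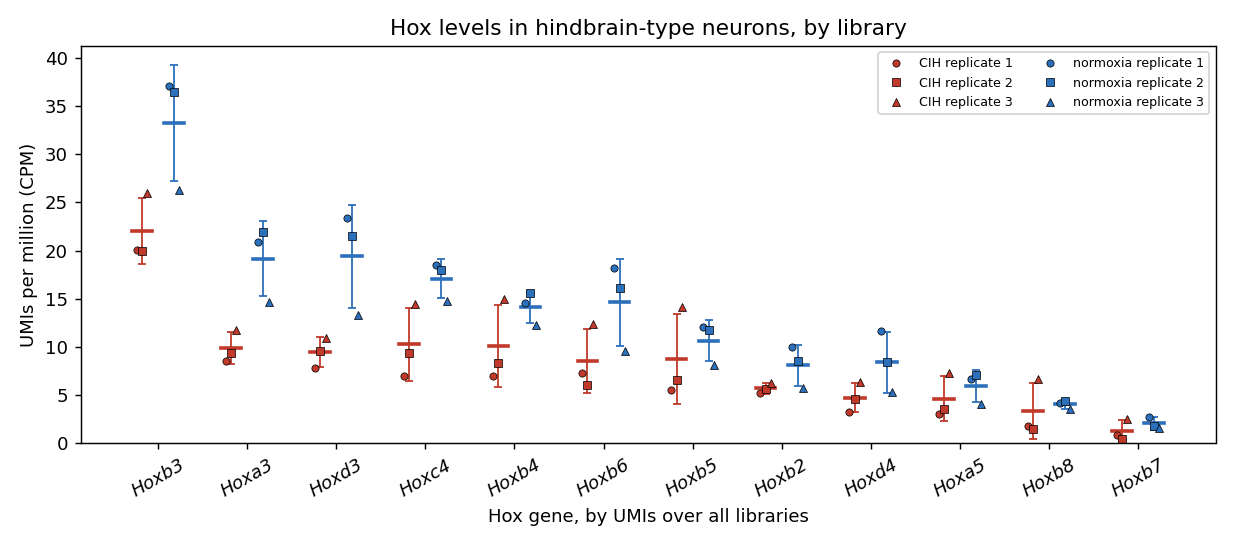
Levels (CPM) of the 12 Hox genes with the most UMIs in hindbrain-type neurons, a point for each library, CIH in red on the left and normoxia in blue on the right of each gene, with the mean and SD of 3 libraries. For Hoxb3, Hoxa3, Hoxd3 and Hoxc4 the highest CIH library is below the lowest normoxia library, and for the other 8 genes the groups overlap.

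In edgeR's quasi-likelihood test 0 of 17 Hox genes and 0% of 17057 genes passed an adjusted p of 0.05 between CIH and normoxia in hindbrain-type neurons. At an unadjusted p under 0.05 there were 1490 genes, with 3.86% of all genes lower in CIH and 4.87% higher, and 9 of the 17 Hox genes were among the lower and 0 among the higher ones. The log2 fold change was below 0 for 16 of 17, with a median of -0.59 over the Hox genes and -0.00 over all genes. The 5 of smallest p were Hoxa3 (-0.94, SE 0.18, adjusted p = 0.181), Hoxd3 (-1.02, SE 0.22, adjusted p = 0.237), Hoxb3 (-0.59, SE 0.16, adjusted p = 0.346), Hoxc6 (-1.72, SE 0.51, adjusted p = 0.38) and Hoxc4 (-0.71, SE 0.24, adjusted p = 0.46). Hoxc6, a gene of the brachial spinal cord in the embryo, had 48 UMIs in all and 0.11, 0.10 and 0.42 CPM in CIH against 0.78, 0.79 and 0.77 CPM in normoxia. Hoxa7 had 0.22, 0.19 and 1.32 CPM in CIH, against 1.86, 1.92 and 1.89 CPM in normoxia, also without overlap (-1.53, SE 0.54, adjusted p = 0.486). Hoxa4 was the only gene above 0, at 0.25 (SE 0.37, adjusted p = 0.883).

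Among genes with at least 60 UMIs in hindbrain-type neurons, the groups did not overlap and CIH was lower for 5 of 16 Hox genes (Hoxd3, Hoxa3, Hoxa7, Hoxb3 and Hoxc4), against 6% of 17120 genes, and CIH was higher for 0. Some Hox genes overlap in position, so these counts are not independent observations. DESeq2 called 109 genes on the same sums, 16 of them lower in CIH, and Hoxd3 and Hoxa3 were 2 of the lower ones.

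The values depended on the third libraries. Without the third CIH library 165 genes passed in edgeR, 31 of them lower in CIH (0.18% of those tested), and 4 of these were Hoxa3, Hoxa7, Hoxb4 and Hoxc4, while the median over Hox genes was -1.08. With the third library of both groups left out, a choice made after the values were seen, 1316 genes passed. Of those tested, 3.36% were lower in CIH, and 13 of 15 Hox genes were among them, with a median of -1.16. Between the third libraries alone the sum over all Hox genes was higher in CIH, at 142 CPM against 127 CPM in normoxia. With the shared barcodes kept, 0 genes passed and the median over Hox genes was -0.57.

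Markers of other cells and regions moved with the groups in the same sums, and their part in the Hox values was not tested. Over all 17120 genes with at least 60 UMIs, CIH was higher without overlap for 8.6% and lower for 6%. Markers of cerebellar granule neurons summed to 364, 351 and 199 CPM in CIH, against 131, 139 and 132 CPM in normoxia, with 4 of 6 markers higher in CIH without overlap and none at 0. Markers of astrocytes summed to 147, 144 and 146 CPM in CIH, against 93.5, 95.8 and 89.1 CPM in normoxia, with 2 of 6 higher without overlap. Markers of oligodendrocyte precursors summed to 46.0, 45.9 and 59.0 CPM in CIH, against 35.4, 39.8 and 43.1 CPM in normoxia, with 1 of 5 higher without overlap. Markers of cerebellar interneurons and Purkinje cells had 70.3, 74.8 and 69.9 CPM in CIH, against 62.5, 68.0 and 49.4 CPM in normoxia, with 1 of 6 higher without overlap. Ependymal markers were lower, at 2.83, 3.59 and 3.61 CPM in CIH, against 3.64, 4.17 and 3.87 CPM in normoxia, with 0 of 3 separated singly. Granule neurons made up 16.3, 19.9 and 3.81% of kept nuclei in CIH and 6.30, 6.98 and 3.59% in normoxia. Glycinergic neurons, the class with the highest Hoxb3 level of the 3 compared, made up 9.22, 8.73 and 6.35% of hindbrain-type neurons in CIH and 14.9, 14.4 and 8.78% in normoxia.

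Genes that mark the midbrain and the midbrain-hindbrain boundary, in front of the Hox territory, were listed as rostral genes. En1, of the boundary region, had 3.37, 4.66 and 3.68 CPM in CIH, against 1.16, 0.46 and 1.98 CPM in normoxia. Otx2, of the midbrain and forebrain, had 4.13, 6.30 and 1.94 CPM in CIH, against 0.93, 0.73 and 1.29 CPM in normoxia. For both genes CIH was higher without overlap, as held for 8.6% of all genes with at least 60 UMIs. The log2 fold changes of En1 and Otx2 were 1.60 (SE 0.41, edgeR adjusted p = 0.305) and 1.97 (SE 0.43, adjusted p = 0.254). Of 10 rostral genes listed 5 could be tested, 0 passed, and 3 were higher at an unadjusted p under 0.05, against 4.87% of all genes. The others were En2 (1.44, SE 0.43, edgeR adjusted p = 0.38), Pax5 (0.26, SE 0.41, adjusted p = 0.889) and Dmbx1, which had a value below 0 (-0.335, SE 0.36, adjusted p = 0.823). En1 had 200 UMIs and Otx2 184.

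No gene of the other pathway lists passed, and the counts at unadjusted p stand against 3.86% lower and 4.87% higher of all genes. Of 9 TALE cofactor genes 0 passed and 1 had an unadjusted p under 0.05, with a median log2 fold change of -0.04. Meis2 (-0.06, SE 0.06) and Pknox2 (0.05, SE 0.06) had edgeR adjusted p of 0.797 and 0.819. Of 14 upstream and maintenance genes tested 0 passed and 1, Kat6a (0.25, SE 0.07, adjusted p = 0.356), had an unadjusted p under 0.05. Of 7 transcripts of the Hox clusters tested 0 passed, all 7 were below 0, and 5 were lower at an unadjusted p under 0.05. Hoxaas3, antisense to cluster a, had 7.50, 5.82 and 7.85 CPM in CIH, against 13.02, 12.2 and 9.77 CPM in normoxia (-0.72, SE 0.17, adjusted p = 0.272). Hotairm1 (-0.51, SE 0.13), Hoxd3os1 (-1.76, SE 0.48) and Haglr (-0.89, SE 0.29) had adjusted p of 0.299, 0.347 and 0.427. These transcripts lie opposite Hox genes, and without knowledge of strand use in counting their reads and those of their partners cannot be told apart.

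The same comparison was made within neuron types. In Slc17a6 excitatory neurons 0 of 10 Hox genes and 0% of 12492 genes passed in edgeR, 5 Hox genes were lower at an unadjusted p under 0.05, against 3.2% of all genes lower and 3.56% higher, and the median was -0.54. Hoxd3 had 9.90, 5.95 and 12.7 CPM in CIH, against 31.6, 26.0 and 13.1 CPM in normoxia (-1.31, SE 0.33, adjusted p = 0.458). Hoxb3 had 16.2, 18.3 and 25.4 CPM in CIH, against 33.2, 36.0 and 22.9 CPM in normoxia (-0.63, SE 0.22, adjusted p = 0.613). The groups overlapped for Hoxb3 but not for Hoxd3 or Hoxc4, the 2 of 10 genes with at least 60 UMIs that did not overlap, against 4.57% of all genes. Hoxc4 had 8.34, 11.9 and 14.6 CPM in CIH, against 18.5, 15.9 and 15.3 CPM in normoxia (-0.52, SE 0.24, adjusted p = 0.734). Hoxa3 (-0.92, SE 0.36) and Hoxb6 (-0.75, SE 0.35) had adjusted p of 0.671 and 0.737. Without the third normoxia library Hoxd3 passed, as 1 of 9 genes lower in CIH among 12611 tested. Without the third library of both groups 4 Hox genes passed (Hoxd3, Hoxa3, Hoxb5 and Hoxb3), against 0.499% of genes lower in CIH. DESeq2 called 1 gene and 0 Hox genes.

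In glycinergic neurons 0 of 10 Hox genes and 0% of 12167 genes passed. Hoxc4 was the 1 that was lower at an unadjusted p under 0.05, against 2.61% of all genes lower and 2.85% higher, and the median was -0.18. Hoxc4 had 7.36, 15.2 and 11.97 CPM in CIH, against 17.2, 18.6 and 17.4 CPM in normoxia (-0.61, SE 0.25, edgeR adjusted p = 0.87), and it was the 1 of 9 genes with at least 60 UMIs without overlap, against 5% of all genes. Hoxb3 had 28.0, 26.1 and 36.5 CPM in CIH, against 34.8, 35.7 and 22.7 CPM in normoxia, and the third CIH library was the highest of all 6. Hoxd3 had 14.7, 13.98 and 17.0 CPM in CIH, against 23.4, 20.1 and 14.5 CPM in normoxia (-0.34, SE 0.23, adjusted p = 0.928), and the groups overlapped. Hoxd4 (-0.67, SE 0.37), Hoxb5 (0.52, SE 0.35) and Hoxb4 (-0.32, SE 0.31) had adjusted p between 0.903 and 0.951. DESeq2 called 1 gene, not a Hox gene. With the third library of both groups left out 0 Hox genes passed, against 0.00811% of genes lower in CIH.

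In GABA neurons without Slc6a5, 0 of 7 Hox genes and 0% of 11428 genes passed, 3 Hox genes were lower at an unadjusted p under 0.05, against 3.12% of all genes lower and 3.22% higher, and the median was -0.86. Hoxd3 had 3.21, 5.49 and 5.65 CPM in CIH, against 17.4, 13.9 and 10.9 CPM in normoxia (-1.46, SE 0.34, edgeR adjusted p = 0.467). Hoxa3 had 3.85, 5.49 and 9.56 CPM in CIH, against 16.5, 18.3 and 11.7 CPM in normoxia (-1.18, SE 0.35, adjusted p = 0.665). Hoxb3 had 14.1, 9.75 and 19.6 CPM in CIH, against 26.9, 34.2 and 22.3 CPM in normoxia (-0.89, SE 0.27, adjusted p = 0.665). These were the 3 of 7 genes with at least 60 UMIs without overlap, against 4.53% of all genes. Hoxc4 (-0.86, SE 0.48) and Hoxb5 (-0.67, SE 0.40) had adjusted p of 0.841 and 0.843. With the third library of both groups left out 4 passed (Hoxa3, Hoxb6, Hoxb3 and Hoxc4), against 0.313% of genes lower in CIH, and DESeq2 called 1 gene and 0 Hox genes.

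Granule markers stood in these types at 316, 163 and 97.8 CPM in CIH, against 87.5, 91.8 and 77.1 CPM in normoxia in Slc17a6 neurons and at 303, 294 and 150 CPM in CIH, against 96.3, 197 and 121 CPM in normoxia in GABA neurons, where the ranges overlapped. In glycinergic neurons they stood at 193, 195 and 64.9 CPM in CIH, against 91.2, 72.7 and 75.2 CPM in normoxia, with overlap. Of 6 granule markers 3 were singly higher without overlap in Slc17a6 neurons, 2 in glycinergic and 0 in GABA neurons. The summed precursor markers did not overlap between the groups in any of the 3 types. They had 62.5, 54.0 and 69.1 CPM in CIH, against 40.5, 38.0 and 50.3 CPM in normoxia in Slc17a6 neurons, and 58.4, 70.1 and 70.8 CPM in CIH, against 36.4, 53.8 and 52.0 CPM in normoxia in GABA neurons. In glycinergic neurons they were lower in CIH, at 16.9, 9.73 and 17.0 CPM, against 24.2, 21.9 and 31.5 CPM in normoxia. Singly, 1 of 5 precursor markers was higher without overlap in Slc17a6 neurons, 0 of 5 in GABA neurons, and 1 of 5 was lower in glycinergic neurons. Over all genes with at least 60 UMIs, 6.95%, 6.85% and 5.82% were higher without overlap in Slc17a6, GABA and glycinergic neurons. In the same order 4.57%, 4.53% and 5% were lower. The summed astrocyte markers did not overlap in GABA neurons (110, 119 and 112 CPM in CIH, against 79.8, 104 and 68.2 CPM in normoxia) or in glycinergic neurons (152, 115 and 107 CPM in CIH, against 98.9, 68.5 and 82.4 CPM in normoxia). Singly, 1 of 6 astrocyte markers was higher without overlap in GABA neurons and 1 of 6 in glycinergic neurons. The part of these markers in the Hox values was not tested. The difference in the CIH effect between Slc17a6 excitatory neurons and all inhibitory neurons was tested with limma on log2 CPM. It passed for 0 of 11 Hox genes and 0% of 13874 genes, with 0 Hox genes at an unadjusted p under 0.05, against 2.85% of all genes lower and 2.8% higher. The smallest p among Hox genes was that of Hoxb5 (-0.73, SE 0.34, adjusted p = 0.894), so a difference between these types was not shown. Without the third CIH library alone 0 Hox genes passed between CIH and normoxia in Slc17a6, glycinergic and GABA neurons and oligodendrocytes, against 0.0687%, 0.0076%, 0.017% and 0.0379% of genes lower in CIH.

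In oligodendrocytes 0 of 6 Hox genes and 0% of 13123 genes passed in edgeR (713 at an unadjusted p under 0.05; DESeq2 called 26 genes and 0 Hox genes). With the replicate number as a block 74 genes passed, and 0 Hox genes. Hoxd4 had 3.85, 2.02 and 1.76 CPM in CIH, against 4.67, 4.32 and 5.65 CPM in normoxia (-1.06, SE 0.35, adjusted p = 0.78). It was the 1 Hox gene lower at an unadjusted p under 0.05, against 2.46% of all genes lower and 2.97% higher, and the 1 of 6 without overlap, against 5.02% of all genes. Microglia markers were lower in the same sums, at 52.9, 58.2 and 55.4 CPM in CIH, against 74.3, 68.6 and 76.1 CPM in normoxia, with 1 of 6 lower without overlap and none at 0, and their part in the Hoxd4 values was not tested. Hoxb3 (-0.58, SE 0.38), Hoxd3 (-0.25, SE 0.25), Hoxa3 (-0.24, SE 0.33) and Hoxb5 (0.15, SE 0.51) had adjusted p between 0.894 and 0.975. With the third library of both groups left out 464 genes passed, 1.86% of those tested as lower in CIH, and 0 of 4 Hox genes.

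**Figure D4:**
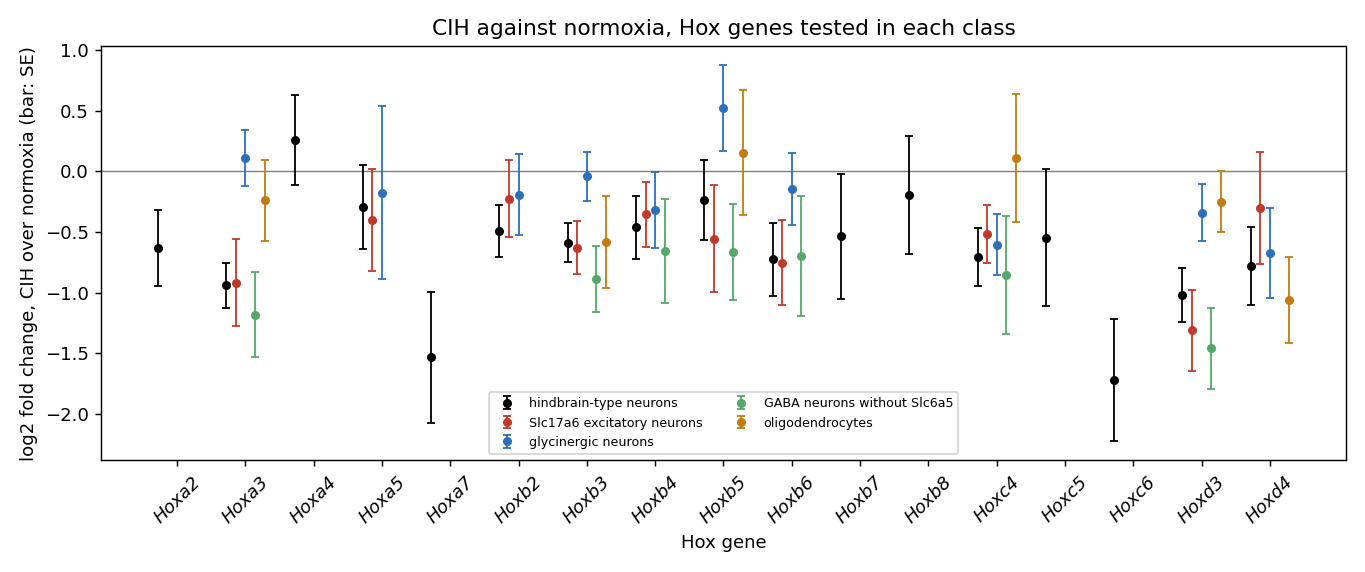
Log2 fold change of CIH over normoxia with its SE for every Hox gene tested in 5 sums, in order of cluster and paralog number. Points of hindbrain-type neurons (black) lie below 0 for 16 of 17 genes and above 0 for Hoxa4. No point passed the adjusted p of 0.05.

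The number of nuclei with Hox RNA was compared after each nucleus was thinned to 1000 UMIs, which left out 142 shallower hindbrain-type neurons of the CIH libraries and 83 of the normoxia libraries. A Hox UMI was found in 8.05, 6.83 and 11.5% of hindbrain-type neurons in CIH and in 18.2, 15.6 and 11.5% in normoxia. Before thinning the shares were 27.7, 29.97 and 36.5% in CIH, against 56.4, 55.7 and 40.8% in normoxia. The first and second CIH libraries were low, while the third CIH library (11.49%) lay just under the third normoxia library (11.53%), within counting error. The means were 8.79 ± 2.42% and 15.1 ± 3.37% (SD, n = 3 each), a difference of -6.33 percentage points, with p = 0.1 in the exact two-sided permutation test over 20 assignments, the smallest it can give. Within the 3 same-numbered pairs the CIH library was lower by 10.2, 8.80 and 0.033 points, with p = 0.25 in the exact sign-flip permutation test, the smallest that 3 pairs can give. With the shared barcodes kept the difference was -5.71 points. The third libraries changed order when top Scrublet scores were removed (11.579% in CIH, 11.498% in normoxia). They also did so with stricter gates (11.294% in CIH, 10.996% in normoxia). In both settings the groups overlapped, with exact permutation p = 0.2 and differences of -6.32 and -6.34 points. The background in the same thinned data was 1.15 to 3.47% of granule neurons, 2.04 to 4.23% of microglia and 2.23 to 4.51% of oligodendrocytes.

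Within types the shares of Slc17a6 neurons were 6.85, 6.47 and 12.6% in CIH, against 20.8, 14.7 and 9.42% in normoxia, and they overlapped (difference -6.33 points, exact permutation p = 0.2, n = 3 each). Those of GABA neurons were 7.58, 3.12 and 7.36% in CIH, against 16.6, 16.7 and 8.59% in normoxia, without overlap (difference -7.92 points, exact permutation p = 0.1, n = 3 each). Those of glycinergic neurons were 11.5, 14.4 and 14.1% in CIH, against 16.8, 16.7 and 9.72% in normoxia, with overlap (difference -1.06 points, exact permutation p = 0.6, n = 3 each). By counting error alone the exact 95% interval ran from 1.16 to 6.68% for the second CIH library of GABA neurons, the lowest of these values.

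The rostrocaudal mix of the Hox RNA was summarised as a caudal index, the mean paralog number of a library's Hox UMIs. In hindbrain-type neurons it was 3.82, 3.77 and 4.18 in CIH and 3.94, 3.91 and 3.94 in normoxia. The first and second CIH libraries were below, and the third above, all normoxia libraries. The means were 3.92 ± 0.22 and 3.93 ± 0.02 (SD, n = 3 each), a difference of -0.005 (exact permutation p = 1). The differences were 0.018 in Slc17a6 neurons (p = 0.8), -0.019 in glycinergic neurons (p = 1) and 0.075 in GABA neurons (p = 0.9), by the same exact permutation test, and the sign changed with single libraries in all 4 sums.

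**Figure D5:**
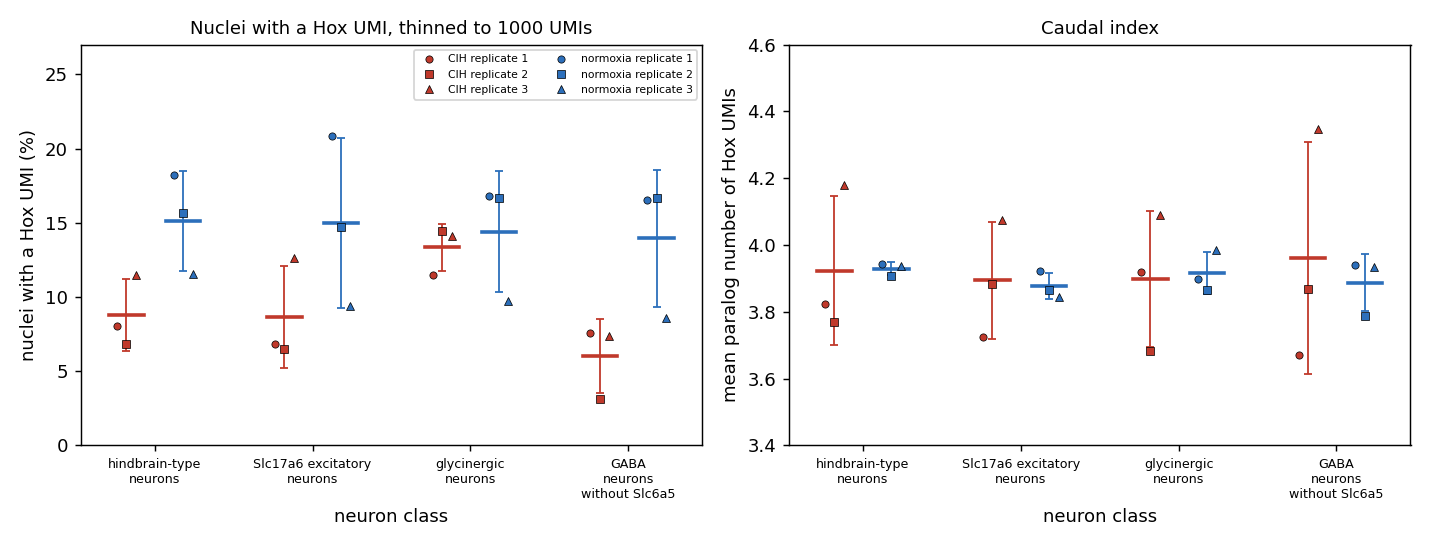
Left, share of nuclei with a Hox UMI after thinning to 1000 UMIs (%), and right, caudal index (mean paralog number of Hox UMIs), in 4 neuron sums, with CIH libraries in red on the left and normoxia libraries in blue on the right of each sum and the mean and SD of 3 libraries. In hindbrain-type neurons the shares average 8.79% in CIH and 15.1% in normoxia, and the index averages 3.92 in CIH and 3.93 in normoxia. The right axis starts at 3.4.

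Hindbrain-type neurons were also divided by whether they had a UMI of paralogs 6 to 8. The 1161 hindbrain-type neurons with a UMI of paralogs 6 to 8 had 215 ± 30.3 CPM of paralogs 3 to 5 and 14.8 ± 2.08 CPM of paralogs 1 and 2 (SD, n = 6 libraries). The 3750 neurons that had a Hox UMI but none of paralogs 6 to 8 had 203 ± 25.6 CPM of paralogs 3 to 5 and 18.4 ± 1.13 CPM of paralogs 1 and 2. Hoxb5 had 25.3 ± 7.56 CPM in the first of these sets and 16.9 ± 5.11 CPM in the second, and Hoxd3 had 21.5 ± 7.31 and 29.2 ± 5.88 CPM. Both sets were chosen by their Hox UMIs, which fixes that the second holds other paralogs, and sums over nuclei do not show which genes a single nucleus carries, so these levels are a description without a test. The other 6830 hindbrain-type neurons had no Hox UMI, with a median of 4714.5 UMIs per nucleus against 7546 and 7182 in these sets, and absence of a UMI at that depth does not show absence of the RNA. The share of neurons with a Hox UMI was 27.7% of those with fewer than 5000 UMIs and 65.9% of those with 20000 or more.

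Neurons rich in Hox RNA were set beside neurons without any, both above a minimum depth. Among hindbrain-type neurons with at least 5000 UMIs, 1440 had 3 or more Hox UMIs and 3224 had none. Pax5, of the midbrain-hindbrain boundary, had 3.04 ± 0.67 CPM in the Hox-rich neurons and 10.2 ± 5.22 CPM in those without (SD, n = 6 libraries), and its ranges overlapped (2.40 to 4.35 against 3.33 to 16.4 CPM). En1 had 0.928 ± 0.902 CPM in Hox-rich neurons and 3.80 ± 2.28 CPM in those without, and its ranges overlapped too (0 to 2.42 against 0.77 to 6.99 CPM). Of the rostral genes listed, only Gbx2 had a higher mean in Hox-rich neurons (0.343 ± 0.292 against 0.258 ± 0.332 CPM, on 5 and 7 UMIs). Of the TALE cofactors, Pknox2 had 158 ± 20.6 CPM in Hox-rich neurons and 88.8 ± 11.9 CPM in those without, while Meis2 had 300 ± 51.2 against 466 ± 39.1 CPM. For Pknox2 and Meis2 every library's Hox-rich neurons lay on 1 side of all values of the neurons without Hox UMIs. The cluster transcripts Hoxb5os (7.17 ± 0.85 against 0.581 ± 0.347 CPM) and Hoxaas3 (16.5 ± 1.87 against 3.92 ± 2.05 CPM) had higher values in Hox-rich neurons. Both lie opposite Hox genes, and strand use in counting is unknown, so their values cannot be told apart from the choice of nuclei by Hox UMIs. Hoxb3os (9.80 to 14.8 against 3.59 to 13.3 CPM) and Hoxd3os1 (0.73 to 7.22 against 0 to 0.77 CPM) overlapped between the sets. The Hox-rich neurons and those without Hox UMIs mix transmitter types in unknown proportion and are described without a test.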

How the data were processed

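The deposited matrices hold UMI counts per gene and barcode, made by the authors with Cell Ranger, version 6.1.2 per the file headers. Per the submitters' processing notes the version was 3.1.0, with Seurat 4.0 and the mm10 build. Whether intronic reads were counted is not given in the sources used here. Kept nuclei (500 genes or more, no more than 5% of UMIs mitochondrial) were gated on marker counts: 4 of 6 pan-neuronal markers for neurons, then 2 transmitter UMIs, 3 granule markers, and 2 to 4 markers for the glial and vascular classes. The thresholds were set after the data had been seen, and Prph, Th and the cerebellar interneuron markers were not used in gates. Doublets were not removed beyond nuclei that passed several gates.

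UMIs were summed per library and class and tested with edgeR 4.0.16 (R 4.3.3; TMM, filterByExpr, quasi-likelihood test, Benjamini-Hochberg adjustment over all genes tested, threshold 0.05), with DESeq2 1.42.0 as an alternative and limma 3.58.1 (prior count 1) for differences of effects. Class contrasts used 12 sums with library as a block. Shares and the caudal index were compared by exact permutation over 20 assignments, and counting intervals are exact Clopper-Pearson at 95%, which cover counting error only. Procedures were tested on simulated data. Other steps used scanpy 1.11.5 (Scrublet, for an alternative), scipy 1.17.1, matplotlib 3.10.9, pandas 2.3.3 and numpy 2.4.6 in Python 3.11.15. All 39 Hox IDs matched GENCODE M21 on mm10, and promoter sequences are from RefSeq.

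Replicate numbers are shared between the groups in the labels. Deviations of same-numbered libraries from their group means correlated at 0.114, 0.121 and 0.257 in hindbrain-type neurons and at 0.151, 0.217 and 0.437 in oligodendrocytes, so the numbers were taken to pair the libraries there and the replicate block was fitted. It left 0 genes called in hindbrain-type neurons. Of 6 libraries, 5 in hindbrain-type neurons and 4 in oligodendrocytes correlated best with the library of their own number, so the pairing was not complete in either.

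Values per library are given for the 12 Hox genes with the most UMIs in hindbrain-type neurons and for those among the 5 of smallest p in a CIH comparison. In class contrasts up to 6 genes of smallest p are named, and up to 4 from each list of other genes. Genes and regions named outside this rule, among them Hoxd1, Haglr, Hoxb3os and Hotairm1 in glia and those of the Hox-rich neurons, were chosen after their values were seen. Some genes that the rule would name are not reported here. The members and lists were chosen with earlier results of these data known. Results were recomputed with DESeq2, with RLE normalization, without the low-count filter, with the block, with stricter nuclei, Scrublet removal or stricter gates, leaving out each library, with other thinning depths and other weights of the index, and, added after the data were seen, shared barcodes kept, same-numbered pairs for the share and index, and the third library of each group left out.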

Additional observations from a re-analysis of the deposited data

How the results depend on the processing

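No gene passed between CIH and normoxia in edgeR as fitted, and the count of genes called depended on tool, filter and library. DESeq2 called 109 of 17057 genes in hindbrain-type neurons, 16 of them lower in CIH, with 2 of 17 Hox genes among the lower. It called 1 gene in each of Slc17a6, glycinergic and GABA neurons and 26 in oligodendrocytes, with 0 Hox genes in these. Without the filter on low counts 49 of 26904 genes were called in hindbrain-type neurons, 7 as lower in CIH, with 2 of 27 Hox genes among the lower. In Slc17a6 neurons it was 117 of 23711 genes, 48 as lower, with 2 of 24 Hox genes among the lower. In glycinergic neurons it was 58 of 23323, with 0 Hox genes. In GABA neurons it was 125 of 23089 genes, 44 as lower, with 1 of 20 Hox genes among the lower. In oligodendrocytes it was 47 of 23628, with 0 Hox genes. With the third library of each group left out the counts were 1316 (13 Hox), 150 (4 Hox), 7, 79 (4 Hox) and 464 in the same order. Over leaving out each library in turn they ranged from 0 to 165 (0 to 4 Hox), 0 to 30 (0 to 1 Hox), 0 to 4, 0 to 9 and 0 to 13, and the libraries that raised them were the third of either group. The replicate block gave 74 genes in oligodendrocytes and 0 in hindbrain-type neurons, where same-numbered libraries deviated together, and it changed no call of a Hox gene in any sum. In the 3 neuron types not every same-numbered pair correlated above 0.1 (0.017 to 0.161), and the block gave 5 genes in Slc17a6, 1 in glycinergic and 9 in GABA neurons. Of 6 libraries 5, 6 and 4 correlated best with the library of their own number in Slc17a6, glycinergic and GABA neurons. The cause of these shifts was not tested.

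Between classes, DESeq2 called 640 genes between Slc17a6 and GABA neurons (1488 in edgeR), 1139 between glycinergic and GABA neurons (2327) and 796 between Slc17a6 and glycinergic neurons (1632), and for the last contrast stricter gates gave 1016. For Slc17a6 against GABA neurons the Hox count was 0 of 8 in DESeq2, 2 of 24 without the filter, 2 of 8 with shared barcodes kept and 1 to 2 over leaving out each library. In the same order 640 of 12108, 1889 of 24878, 1507 of 12132 and 1121 to 1380 of all genes passed. For glycinergic against GABA neurons the Hox count was 1 of 8 in DESeq2 and 1 to 4 over leaving out each library. Of all genes 1139 of 11303 and 1845 to 2139 passed in the same order.

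The difference in caudal index had no stable sign. It ranged over leaving out each library from -0.134 to 0.072 in hindbrain-type, -0.072 to 0.102 in Slc17a6, -0.115 to 0.088 in glycinergic and -0.117 to 0.221 in GABA neurons. It was 0.013 in hindbrain-type neurons and 0.004 in glycinergic neurons without the Hox gene with the most UMIs. With stricter gates it was -0.035 in Slc17a6, 0.018 in glycinergic and -0.08 in GABA neurons. Scaling every gene to its mean made it negative in all 4 sums, at -0.233 in hindbrain-type, -0.203 in Slc17a6, -0.395 in glycinergic and -0.006 in GABA neurons. Leaving out the third libraries gave -0.088 in Slc17a6 and -0.094 in GABA neurons. The difference in share of glycinergic neurons was 3.04 points with stricter gates and -3.40 to 0.148 over leaving out each library. It kept its direction in the other 3 sums, at -8.13 to -4.79, -9.11 to -3.40 and -10.6 to -6.47 points in hindbrain-type, Slc17a6 and GABA neurons over leaving out each library. Of single genes, Hoxb5 in glycinergic neurons was -0.13 without the third libraries. In oligodendrocytes, over leaving out each library, Hoxa3 ranged from -0.569 to 0.062 and Hoxb5 from -0.967 to 0.427, with the sign changed for Hoxa3 without CIH 3 (0.062) or normoxia 3 (0.018) and for Hoxb5 without CIH 3. Hoxa3 was 0.32 with the third library of both groups left out. Of the values of single genes and cluster shares under alternatives, 474 kept direction and side of the threshold, 20 passed it, 48 no longer passed it and 5 changed sign. With 1 library left out the sign-flip test of cluster shares cannot give p under 0.05. Of the counts, shares and indices, 315 kept direction, threshold or size, 52 counts moved by over 1.5 times or from or to 0, and 19 values changed sign. Counts of 0 that stayed 0 are among the 315. Exact tests of the share of nuclei and the index cannot give p under 0.05, so these could not cross the threshold. Depth limits the members below 100 UMIs.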
